A study of Mus musculus with 36 samples.

Results

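The transcriptional response of wild-type (WT) bone marrow-derived macrophages (BMDMs) to lipopolysaccharide (LPS) was described across genes from 6 of the 36 RNA-seq libraries of the series, chosen by their labels as the 3 WT libraries that received LPS and the 3 WT libraries that received vehicle. All 6 came from female C57BL/6 mice aged 13 to 17 weeks that carried loxP-flanked alleles of Bmal1 but no Cre recombinase, so that the clock gene Bmal1 was intact, and these animals were the littermate controls of mice with a myeloid LysM-driven Cre (KO). Bone marrow was grown for 7 days in medium with 20% serum and macrophage colony-stimulating factor (MCSF), and the cells then received 100 nM LPS in dimethyl sulfoxide (DMSO) or DMSO alone for 6 h. The other libraries hold WT cells given 100 µM CCM, a small molecule that binds BMAL1, alone or with LPS (3 libraries each), and KO cells under all of these treatments (6 libraries each). They were used here only to compare the response with libraries that it does not share. The study calls its replicates biological and counts them as mice, but the labels give only replicate numbers and tie no library to an animal. The p-values measure the spread between these libraries.

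LPS, a glycolipid of the outer membrane of Gram-negative bacteria, is bound by CD14 and MD-2 and engages the receptor TLR4. TLR4 signals through the adaptor MYD88, which leads to NF-kB and AP-1 and to the early cytokine genes, and through the adaptor TRIF, which leads to IRF3, interferon beta and then, by the secreted interferon, to STAT factors with IRF9 and to the interferon-stimulated genes. In macrophages this program is known for secreted cytokines and chemokines, nitric oxide and itaconate, raised antigen presentation, induced inhibitors that limit the signal, and withdrawal from the cell cycle. A time point of several hours holds the secondary, interferon-driven genes beside the primary ones, while transcripts that peak within the first hour may already have returned.

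The 6 libraries held 19016154 to 28288923 counts on genes. Libraries of a group differed by more than counting noise (chi-square per degree of freedom of 6.54 to 19.4), and the common biological coefficient of variation was 0.106. For well-counted genes the spread between replicates limited the precision, and for genes with few counts the depth did so as well. Macrophage markers (12 genes, among them Adgre1, Csf1r, Cd68 and Lyz2) summed to 19623 to 22433 CPM (read counts per 1000000 counts of the library, scaled by edgeR's trimmed mean of M values, TMM) with overlapping groups. Of the 12 genes 3 were called higher, each past 2-fold (Cd14, Fcgr1 and Adgre1), and 8 lower, 1 of the latter past 2-fold. T cell, B cell, NK cell, erythroid and dendritic cell markers summed to at most 5.46 CPM per list and library, and those of mast cells and basophils to 13.7 to 18.2 CPM with none called. Of the genes on these lists, Xcr1, of dendritic cells, was raised past 2-fold (2.94) and Klrb1c, of NK cells, lowered (-3.31). Neutrophil markers were lower with LPS, at 558 to 602 CPM against 734 to 775 CPM, and 7 of the 9 tested were called lower, 4 of them past 2-fold, while Camp (0.78) and S100a8 (0.20) were called higher by less than 2-fold. Fibroblast markers summed to 1390 CPM in vehicle replicate 3 and to 482 to 746 CPM in the other 5 libraries. The part of these other cells in the results below was not tested.

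Of 14501 genes with enough counts to be tested, 9139 (63%) differed between LPS and vehicle at an adjusted p of at most 0.05 (edgeR's quasi-likelihood test, Benjamini-Hochberg adjustment), 4441 higher (30.6%) and 4698 lower (32.4%). In 9989 genes (68.9%) the 3 LPS values did not overlap the 3 vehicle values. With so many genes called, the response is counted below by a stricter test that asks for a change over 2-fold (edgeR's glmTreat, adjusted p of at most 0.05). It called 2741 genes (18.9%), 1490 raised (10.3%) and 1251 lowered (8.63%), and in each of the 2741 the groups did not overlap. These percentages are the background against which the counts of the gene lists are to be read. Scaling turned the majority of the calls past 2-fold, with 1097 raised and 2284 lowered genes under total counts and 1279 and 1660 under upper-quartile scaling. In what follows, a number alone in parentheses after a gene is its log2 fold change of LPS over vehicle. In bulk RNA, fewer cells of a type and less RNA per cell cannot be told apart.

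The response was lopsided in size. Of the genes called past 2-fold, 939 rose and 617 fell by at least 4-fold, 585 and 163 by at least 8-fold, 219 and 16 by at least 32-fold, and 61 and 0 by at least 256-fold. The median level of the raised genes was 10.2 CPM with vehicle and 72.7 CPM with LPS, and that of the lowered genes 14.4 and 3.29 CPM. The median log2 fold change was 2.49 for the raised and -1.98 for the lowered genes. How far a gene can be seen to fall is bounded by its vehicle level and by the counting floor. In the LPS libraries 3 counts equal 0.123 to 0.181 CPM. Of the raised genes, 395 were under 1 CPM in every vehicle library, and 31 of them had 0 counts there. Conversely, 303 lowered genes were under 1 CPM in every LPS library. Raised genes took 7.52 to 7.80% of all counts in the vehicle libraries and 32.1 to 33.0% in the LPS libraries, and the share of the lowered genes went from 7.52 to 7.63% to 1.68 to 1.76%. With so large a part of the LPS libraries on raised genes, the scaling of the libraries affects the values. TMM left the median of all genes tested at -0.05 on the log2 scale, whereas scaling by total counts alone moved it to -0.47, a shift of 0.41. Raised genes made up 48.6% of the 9139 calls under TMM, 24% of 10611 calls under total counts and 36% of 9537 calls under upper-quartile scaling. Of the 2741 genes called past 2-fold, 85.7% were also called past 2-fold under total counts, and none changed sign there.

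**Figure D1:**
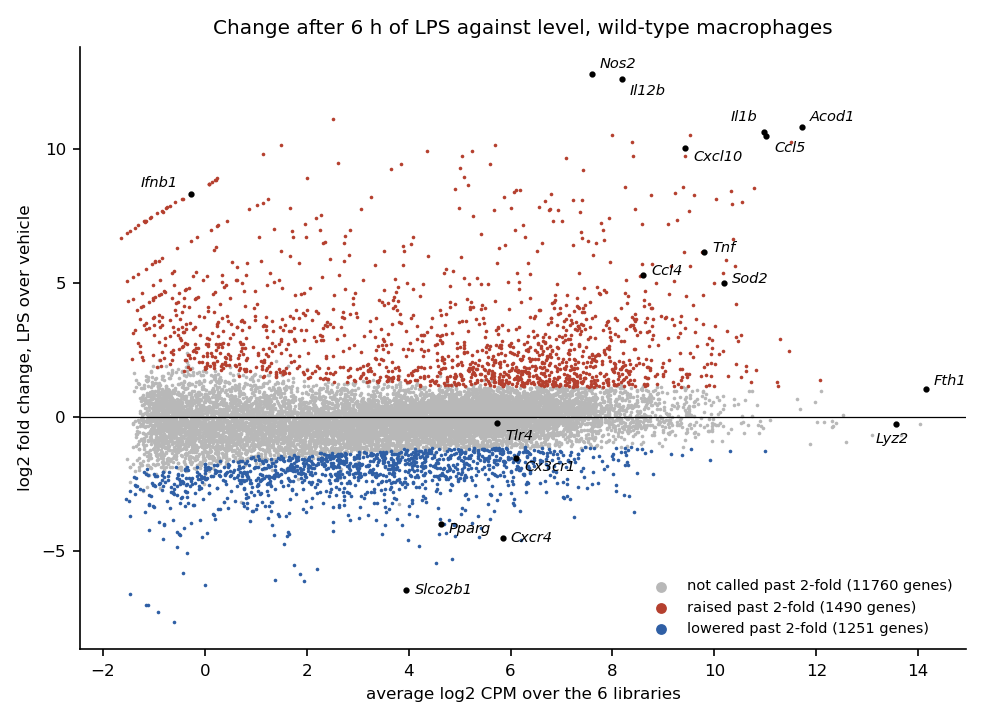
Change after LPS against level for the 14501 genes tested. The x axis is the average log2 CPM over the 6 libraries, the y axis the fitted log2 fold change of LPS over vehicle, and each point is 1 gene, colored where it was called past 2-fold. Raised genes reach a log2 fold change of 12.80 (Nos2), and lowered genes with an average log2 CPM of at least 3 reach -6.48 (Slco2b1).

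Nos2 (ENSMUSG00000020826, GRCm38 chr11:78920787-78960254), which encodes the inducible nitric oxide synthase, had the largest fitted change. It stood at 356, 393 and 409.6 CPM with LPS and 0.0744, 0 and 0.0614 CPM with vehicle, with 4 counts in all over the vehicle libraries (log2 fold change 12.80 ± 0.18 (SE), adjusted p = 1.70e-11). Each SE given here is the size of the fitted change divided by the square root of the test's F statistic. Where the vehicle libraries hold only a few counts, as for Nos2 and Il12b, it is too narrow for the size of the change. Il12b (ENSMUSG00000004296, chr11:44400063-44414033), the p40 subunit shared by the cytokines IL-12 and IL-23, stood at 694, 660.0 and 388 CPM with LPS and 0.0372, 0 and 0.184 CPM with vehicle (log2 fold change 12.64 ± 0.41 (SE), adjusted p = 2.43e-09). LPS replicate 3 was the lowest of the LPS libraries for Il12b, and still far above each vehicle library. Acod1 (ENSMUSG00000022126, chr14:103046977-103056573), which makes the antimicrobial metabolite itaconate, stood at 7040.3, 6738 and 6312 CPM with LPS and 3.09, 3.99 and 3.99 CPM with vehicle (log2 fold change 10.82 ± 0.12 (SE), adjusted p = 8.31e-12). Among genes with an average log2 CPM of at least 3, the other 9 of the 12 most raised were Il1b (10.66), Gbp5 (10.53), Il6 (10.53), Ccl5 (10.51), Saa3 (10.29), Cxcl3 (10.27), Cxcl9 (10.17) and Cxcl10 (10.04) and Csf3. Ccl5, Cxcl3, Cxcl9 and Cxcl10 are chemokines, Il1b, Il6 and Csf3 encode cytokines and a growth factor, Gbp5 a guanylate-binding protein and Saa3 an acute-phase protein. Csf3, the granulocyte colony-stimulating factor, had 3 counts in the vehicle libraries and 36.7, 45.9 and 41.8 CPM with LPS, a ratio of 1143 with a 95% interval of 391 to 5545 that covers counting error only. The fitted log2 fold change of Csf3 was 9.96 ± 0.29 (SE), which is narrower than this interval.

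On the lowered side, Slco2b1 (ENSMUSG00000030737, chr7:99657804-99711340), an organic anion transporter, stood at 0.181, 0.309 and 0.452 CPM with LPS and 28.4, 29.2 and 31.7 CPM with vehicle (log2 fold change -6.48 ± 0.18 (SE), adjusted p = 8.74e-10). St6gal1, a sialyltransferase, stood at 0.603, 0.927 and 1.40 CPM with LPS and 46.5, 41.9 and 45.2 CPM with vehicle (log2 fold change -5.45 ± 0.17 (SE), adjusted p = 1.65e-09). Cxcr4 (ENSMUSG00000045382, chr1:128588199-128592293), the receptor that holds myeloid cells in the bone marrow, stood at 5.73, 4.24 and 4.47 CPM with LPS and 118, 105 and 104 CPM with vehicle (log2 fold change -4.52 ± 0.11 (SE), adjusted p = 3.37e-10), a fall by 22.9-fold. In each of these 3 genes all LPS libraries lay far below all vehicle libraries, and the LPS libraries of Slco2b1 lay under 1 CPM. The remaining 9 were Zdhhc14 (-5.29), Zfp395 (-4.81), Zfyve28 (-4.60), Arhgap19 (-4.59), Rnf150 (-4.48), Pald1 (-4.44), Gpr183 (-4.39), Cnr2 (-4.37) and Susd3 (-4.33). Gpr183 is the oxysterol receptor EBI2, and its ligand-producing enzyme Ch25h moved the other way (26.6, 31.1 and 31.2 CPM with LPS and 0.409, 0.493 and 0.767 CPM with vehicle, log2 fold change 5.68). Cnr2 encodes the cannabinoid receptor CB2, Zdhhc14 a palmitoyltransferase and Arhgap19 a GTPase-activating protein.

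**Figure D2:**
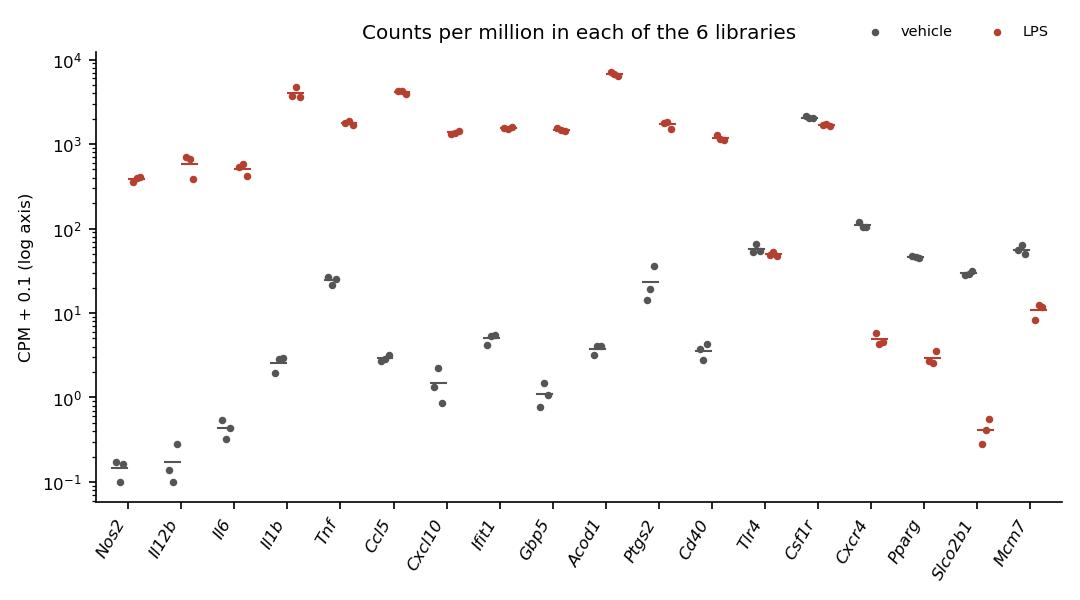
Values in each of the 6 libraries for 18 genes described in the text. The y axis is CPM + 0.1 on a log axis, points are single libraries, gray for vehicle and red for LPS, and the short line is the group mean. The groups of Tlr4 overlap, and those of Nos2 and Il12b lie more than 3 powers of 10 apart.

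To show the sequence in front of genes of this program, the RefSeq promoter windows of build GRCm38.p6 were searched, of which the 250 bases before the start site are described. A window with the same symbol, chromosome and strand was found for 10339 of the 14501 genes tested, and where a gene had several, the one nearest to the 5′ end of the gene in the deposited table was taken. Of the genes called past 2-fold and raised at least 8-fold, 392 had a window. The kappa B consensus, which NF-kB binds, was held by 17.9% of these windows, against 11.0% of 671 other raised genes, 8.34% of 8359 genes not called past 2-fold, 8.18% of 917 lowered genes and 7.25% of all 32851 windows. The core of the interferon-stimulated response element (ISRE, GAAANNGAA), which IRF9 complexes and other IRF factors bind, was held by 21.4% of the strongly raised genes, 8.49% of the other raised, 5.87% of those not called, 4.8% of the lowered and 7.13% of all windows. The AP-1 site TGANTCA (11.7, 6.11, 3.88, 4.69 and 6.75% in the same order), the STAT site GAS (TTCNNNGAA, 11.7, 5.66, 5.79, 4.8 and 7.02%) and a TATAAA on the sense strand within 50 bases of the start (6.12, 1.94, 1.22, 2.07 and 2.63%) were likewise held most often by the strongly raised genes. The E-box CACGTG, to which BMAL1-CLOCK binds, was not, at 5.36, 7.9, 8.41, 9.27 and 6.02%, nor was the cAMP response element TGACGTCA, at 1.02, 1.79, 2.95, 1.42 and 1.55%. Motifs other than TATAAA were searched on both strands, and kappa B and ISRE letters lay in the same window in 47 of the genes tested. The strongly raised genes also had windows poorer in G and C (median 50.8%, against 59.6 to 60% in the other response groups), and base composition changes how often such letters occur. Read the other way, 14 of the 47 genes with both motifs were raised past 2-fold (29.8%), 20.2% of 629 with the ISRE core alone, 15% of 869 with kappa B alone and 9.01% of 8794 with neither. A match is a description of letters, not a bound site.

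**Figure D3:**
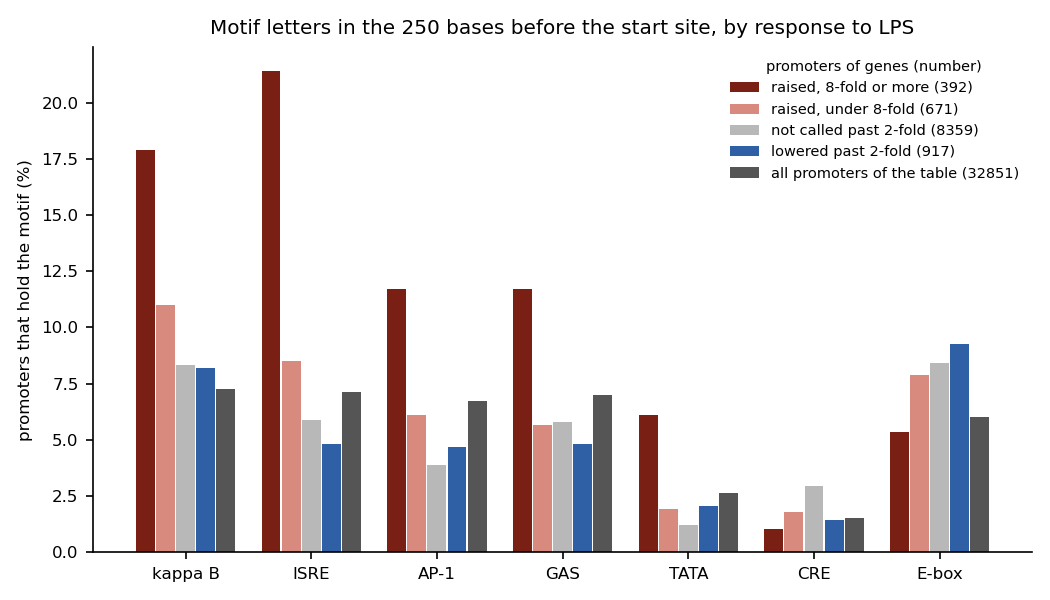
Share of promoter windows that hold each motif, by response to LPS. The y axis is the percentage of windows with at least 1 match in the 250 bases before the start (50 bases for TATA), bars start at 0, and the number of windows is given for each group. The dark red bars, genes raised at least 8-fold, are the tallest for kappa B, ISRE, AP-1, GAS and TATA and not for CRE and the E-box.

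Of 9 interferon-induced GTPase genes with a window, 9 held the ISRE core, as did 9 of 20 antiviral genes, 3 of 12 chemokine genes, 3 of 17 cytokine genes and 1 of 33 cell cycle genes. Kappa B letters were held by 1, 4, 5, 7 and 2 genes of these lists in the same order. The windows of 4 raised genes, the most raised member with kappa B or ISRE letters in each of 4 lists, are printed 5′ to 3′ on the strand of the gene and end at the last base before the start site. Capitals mark kappa B, ISRE core and TATAAA letters. For Cxcl3 (chr5:90785851-90786100, plus strand) 2 overlapping kappa B matches lie 73 to 63 bases before the start and TATAAA lies 30 to 25 bases before it. For Il19 (chr1:130940116-130940365, minus strand) the ISRE core lies 107 to 99 and the kappa B match 77 to 68 bases before the start. For Rsad2 (chr12:26456453-26456702, minus strand) the ISRE core lies 119 to 111 bases before the start, on the opposite strand. For Sod2 (chr17:13007589-13007838, plus strand) the kappa B match lies 83 to 74 bases before a start that is 993 bases from the 5′ end in the deposited table.
Cxcl3: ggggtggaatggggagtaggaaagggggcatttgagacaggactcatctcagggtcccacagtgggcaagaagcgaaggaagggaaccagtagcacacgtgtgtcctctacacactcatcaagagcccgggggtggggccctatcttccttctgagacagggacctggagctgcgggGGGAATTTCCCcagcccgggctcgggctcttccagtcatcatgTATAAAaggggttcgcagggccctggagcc
Il19: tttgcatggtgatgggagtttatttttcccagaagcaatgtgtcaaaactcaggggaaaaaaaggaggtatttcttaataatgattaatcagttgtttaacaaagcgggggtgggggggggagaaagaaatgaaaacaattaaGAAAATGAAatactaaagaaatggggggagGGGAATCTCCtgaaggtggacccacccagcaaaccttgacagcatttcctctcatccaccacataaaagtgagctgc
Rsad2: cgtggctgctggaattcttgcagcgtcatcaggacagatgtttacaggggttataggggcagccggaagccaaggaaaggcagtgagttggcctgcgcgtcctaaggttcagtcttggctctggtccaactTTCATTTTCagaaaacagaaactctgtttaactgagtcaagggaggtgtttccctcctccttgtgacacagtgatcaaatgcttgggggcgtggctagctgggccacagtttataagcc
Sod2: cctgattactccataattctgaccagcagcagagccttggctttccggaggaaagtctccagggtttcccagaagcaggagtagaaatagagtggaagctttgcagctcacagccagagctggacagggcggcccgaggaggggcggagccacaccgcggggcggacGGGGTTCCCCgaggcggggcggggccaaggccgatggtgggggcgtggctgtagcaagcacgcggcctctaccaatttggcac

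The lists below were ordered by role. Across them, the medians ran from 6.94 for the interferon-induced GTPases to -1.52 for the cell cycle genes, against -0.05 for all genes tested. The reference genes, which include Tbp and Ppia, had a median of 0.11 and 0 of 10 members called past 2-fold (1 without vehicle replicate 1). The median became -0.31 under total counts and -0.07 under upper-quartile scaling. Ywhaz (1.01) and Actb (0.96) stood near 2-fold higher with LPS and Hprt (-0.73) lower, each called and each with groups apart. Actb stood at 5529, 5747 and 6095 CPM with LPS and 3152, 3009.7 and 2752 CPM with vehicle.

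**Figure D4:**
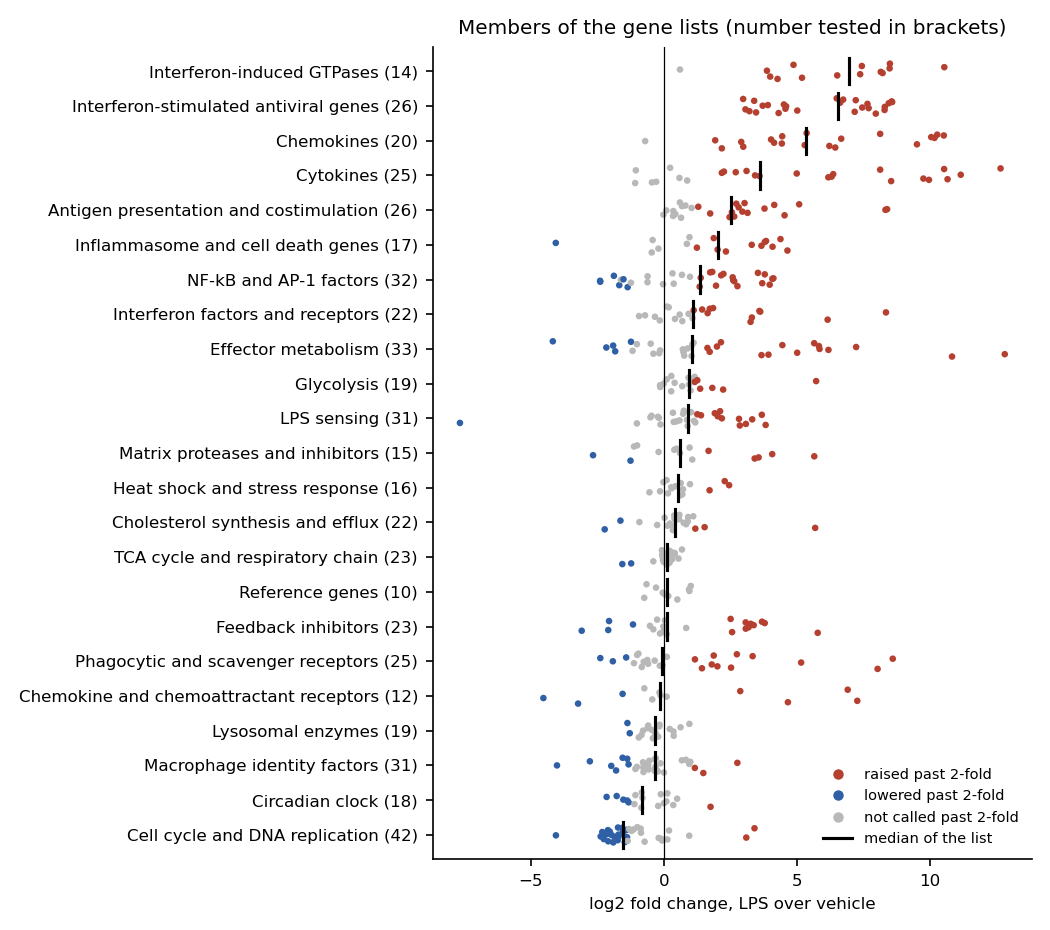
Fitted log2 fold change (x axis) of each tested member of the 23 gene lists, ordered by the median of the list (black line). Red and blue points were called past 2-fold. The antiviral and GTPase lists and the chemokines lie almost wholly to the right, with Gbp8 and Ccl6 as the gray points, and most cell cycle genes lie to the left, with Cdkn1a and Ccnd2 in red on the right.

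Among the 31 genes of LPS sensing, 12 were raised past 2-fold and 1 was lowered, with a median of 0.90. Cd14, the co-receptor, rose from 361, 369.7 and 295 CPM to 2389, 2588 and 2447 CPM (log2 fold change 2.86 ± 0.09 (SE), adjusted p = 2.20e-09). Tlr4 itself stood at 48.3, 53.1 and 46.5 CPM with LPS and 52.5, 65.3 and 54.7 CPM with vehicle (log2 fold change -0.22 ± 0.09 (SE), adjusted p = 0.0595) and was not called, with overlapping groups. It was called lower in 7 of the 14 other analyses, among them without vehicle replicate 1 (-0.27) or vehicle replicate 3 (-0.25) and under total counts (-0.63). The receptors for bacterial lipopeptides and nucleic acids that rose most were Tlr2 (3.68), Tlr3 (3.32) and Tlr1 (3.08), and Tlr2 stood at 745, 773 and 763 CPM with LPS and 59.3, 59.3 and 59.2 CPM with vehicle. The flagellin receptor Tlr5 went from 0.781, 0.941 and 1.35 CPM to 0 counts in each LPS library, at least 7.04-fold lower against a floor of 3 counts per library, and Tlr13 was lower by 2.01-fold (-1.01, called but not past 2-fold). Among adaptors and kinases, the inhibitory kinase Irak3 (3.83) and the adaptor Myd88 (2.18) rose past 2-fold, while Irak1 (-0.46) and Tab1 (-0.50) were called lower by less than 2-fold.

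NF-kB subunits rose together, with 5 of 5 called past 2-fold. Nfkb2, whose product p52 acts in the noncanonical arm, stood at 853, 847 and 799.6 CPM with LPS and 48.1, 51.3 and 48.7 CPM with vehicle (log2 fold change 4.08 ± 0.06 (SE), adjusted p = 2.70e-11). Relb (2.77), Nfkb1 (2.65), Rel (1.82) and Rela (1.35) followed, so that Rela, the main transactivating subunit, changed the least of the 5. Of the 6 inhibitors and cofactors of the IkB family 5 rose past 2-fold, among them Nfkbiz (3.98), Nfkbie (3.70) and Nfkbia (3.54). Nfkbia, which encodes IkB alpha, stood at 674, 741 and 789.5 CPM with LPS and 62.8, 63.2 and 64.1 CPM with vehicle. The 21 AP-1, ATF and immediate early factors were divided, with 7 raised and 6 lowered past 2-fold. Batf (4.12) and Nr4a3 (3.79) led those raised. Fos stood at 51.6, 58.5 and 65.2 CPM with LPS and 198, 222 and 223 CPM with vehicle (log2 fold change -1.87 ± 0.09 (SE), adjusted p = 3.96e-08) and Jun at 54.9, 59.6 and 61.9 CPM with LPS and 208, 169.6 and 184 CPM with vehicle (log2 fold change -1.67 ± 0.08 (SE), adjusted p = 6.43e-08). Both are classical genes of the first hour, and at 6 h their LPS values were below every vehicle value. Lowered past 2-fold were also Myc (-1.51), Batf3 (-2.39) and Npas4 (0.904, 0.927 and 1.03 CPM with LPS and 6.18, 4.66 and 4.27 CPM with vehicle, log2 fold change -2.39), and Atf3 (-0.61) was called lower by less than 2-fold.

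Interferon beta (Ifnb1) had 0 counts in the vehicle libraries and 1.99, 1.32 and 1.72 CPM with LPS, at least 14.9-fold higher against the floor of 3 counts per library, a low level at this time. The factors that it activates were higher. Irf7 stood at 1269, 1317 and 1426 CPM with LPS and 17.5, 21.4 and 17.7 CPM with vehicle (log2 fold change 6.15 ± 0.10 (SE), adjusted p = 3.32e-11), and Stat2 (3.31) and Irf1 (3.26) rose past 2-fold as well. Among the receptors and kinases of the list of interferon factors and receptors, Jak2 (3.59) rose past 2-fold. In all, 11 of 22 genes of this list were raised past 2-fold and 0 lowered. The lineage factor Irf8 (-0.15, adjusted p = 0.0808) was not called, except as lower without LPS replicate 3 (-0.20) and in 3 other analyses, and the interferon gamma receptor subunit Ifngr1 (-0.93) was lower.

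The interferon-stimulated antiviral genes formed the most uniform list. All 26 rose past 2-fold, from 2.98 (Eif2ak2) to 8.58 (Mx1), with a median of 6.56. Rsad2, whose product viperin makes a chain-terminating nucleotide, stood at 3563, 3310.2 and 3641 CPM with LPS and 8.33, 10.3 and 9.39 CPM with vehicle (log2 fold change 8.56 ± 0.10 (SE), adjusted p = 9.44e-12). Ifit1, which binds viral RNA ends, stood at 1531, 1500.0 and 1593 CPM with LPS and 4.06, 5.20 and 5.46 CPM with vehicle (log2 fold change 8.29 ± 0.11 (SE), adjusted p = 1.66e-11). In both genes all LPS libraries lay far above all vehicle libraries. Cmpk2 (8.45), Oasl1 (8.30) and Isg15 (7.69) were of the same order, and so was the deconjugase Usp18 (7.45), a known inhibitor of interferon receptor signaling. Of the 14 interferon-induced GTPases, which attack vacuoles of intracellular pathogens, 13 rose past 2-fold, with a median of 6.94. Gbp5 stood at 1540.1, 1465 and 1434 CPM with LPS and 0.670, 1.39 and 0.982 CPM with vehicle (log2 fold change 10.53 ± 0.14 (SE), adjusted p = 1.70e-11), and Tgtp2 (8.49), Iigp1 (8.48), Gbp6 (8.22) and Gbp2 (8.15) followed. Gbp8 was the exception (0.61, adjusted p = 0.0171) and was not called in 5 of 14 other analyses, among them without LPS replicate 3 (0.57) and under total counts (0.20). Tgtp1 and Tgtp2, and Ifit3 and Ifit3b, are near-identical pairs whose reads the counting could split, and each is uncertain as a single gene.

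Cytokine genes rose in 18 of 25 members tested past 2-fold, and 0 fell past 2-fold (median 3.60). Il1b stood at 3744, 4696 and 3633 CPM with LPS and 1.86, 2.73 and 2.85 CPM with vehicle (log2 fold change 10.66 ± 0.18 (SE), adjusted p = 3.41e-11), and its interval overlaps an antisense gene. Il6 stood at 540.1, 581 and 417 CPM with LPS and 0.447, 0.224 and 0.338 CPM with vehicle (log2 fold change 10.53 ± 0.21 (SE), adjusted p = 7.13e-11), and Tnf at 1786, 1849 and 1662 CPM with LPS and 26.4, 21.6 and 24.96 CPM with vehicle (log2 fold change 6.18 ± 0.10 (SE), adjusted p = 2.70e-11). All LPS libraries lay above all vehicle libraries in these 3 genes, and Tnf rose 72.5-fold from a vehicle level already over 20 CPM. Il19, of the IL-10 family, had 0 counts with vehicle and 9.16, 12.01 and 13.9 CPM with LPS, at least 104-fold higher. Il1a (9.75), Il12a (8.54), Il27 (8.13), Il18 (3.60) and Il15 (3.43) rose as well, and Il23a had 2 counts with vehicle and 3.07, 2.21 and 2.01 CPM with LPS. Among cytokines that restrain inflammation, the receptor antagonist Il1rn reached 1733, 1988 and 2182 CPM (4.99) and Il10 19.7, 20.8 and 25.5 CPM (3.11), the latter from 2.94, 2.51 and 2.24 CPM. Edn1, the vasoconstrictor endothelin-1, stood at 105, 108 and 114 CPM with LPS and 1.08, 0.852 and 2.03 CPM with vehicle (6.30). Of 9 colony-stimulating and growth factors tested 5 were called higher, 3 of them past 2-fold (median 0.59). Igf1 (-1.07), Vegfa (-1.05) and Pdgfb (-0.44) were called lower but not past 2-fold, and Osm (-0.28) was not called, except as lower without vehicle replicate 2 (-0.43) and in 3 other analyses. Without vehicle replicate 3, 1 cytokine gene fell past 2-fold.

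Of 20 chemokines 19 rose past 2-fold. Ccl5, which recruits T cells and monocytes, stood at 4288, 4196 and 3905 CPM with LPS and 2.57, 2.73 and 3.10 CPM with vehicle (log2 fold change 10.51 ± 0.10 (SE), adjusted p = 8.31e-12). Cxcl10, which draws T cells through CXCR3, stood at 1323, 1366 and 1429 CPM with LPS and 1.23, 2.11 and 0.767 CPM with vehicle (log2 fold change 10.04 ± 0.20 (SE), adjusted p = 7.49e-11), and it overlaps Art3. The CXCR3 ligand Cxcl9 (106, 115 and 92.4 CPM with LPS and 0.0744, 0.134 and 0.0614 CPM with vehicle) and the related gene Cxcl11 (13.1, 9.45 and 15.4 CPM with LPS, 1 count with vehicle) rose with it. Cxcl11 is a polymorphic pseudogene in the deposited annotation, and whether its transcript yields a ligand in these mice was not tested. The neutrophil chemoattractants Cxcl1 (8.13), Cxcl2 (6.66) and Cxcl3 (10.27) and the CC chemokines Ccl22 (6.44), Ccl3 (5.36), Ccl4 (5.29) and Ccl2 (4.14) covered the rest of the range. Ccl3 and Ccl4 were already at 59.2, 49.2 and 55.3 CPM and 25.4, 17.7 and 14.8 CPM with vehicle. Ccl6 was the exception, at 75.97, 114 and 108 CPM with LPS and 155, 192 and 138 CPM with vehicle (log2 fold change -0.70 ± 0.16 (SE), adjusted p = 0.00284).

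Chemoattractant receptors went in opposite directions, with 4 of 12 raised and 3 lowered past 2-fold. The formyl peptide receptors Fpr2 (448, 435 and 433 CPM with LPS and 2.83, 3.14 and 2.64 CPM with vehicle, log2 fold change 7.27) and Fpr1 (6.91), which sense bacterial peptides, rose together with Ccrl2 (4.66) and Ccr7 (2.87). Against them stood Cxcr4, Ccr2 and Cx3cr1. Ccr2, the receptor that draws monocytes to CCL2, stood at 2.41, 3.71 and 3.28 CPM with LPS and 25.6, 30.6 and 32.5 CPM with vehicle (log2 fold change -3.22 ± 0.16 (SE), adjusted p = 4.41e-08), while its ligand Ccl2 rose. Cx3cr1, the fractalkine receptor, stood at 34.2, 37.7 and 32.5 CPM with LPS and 116, 98.7 and 90.4 CPM with vehicle (log2 fold change -1.55 ± 0.10 (SE), adjusted p = 4.05e-07).

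Feedback inhibitors were mixed at 6 h. Of 23, 10 were raised and 4 lowered past 2-fold, and the median of 0.10 turned negative under total counts (-0.31), upper-quartile scaling (-0.08) and voom (-0.0034). Socs3, which blocks cytokine receptor kinases, stood at 415, 516 and 539 CPM with LPS and 7.44, 6.23 and 12.6 CPM with vehicle (log2 fold change 5.78 ± 0.23 (SE), adjusted p = 9.01e-09), and Tnfaip3, the ubiquitin-editing enzyme A20, at 886, 909.7 and 979.9 CPM with LPS and 62.1, 62.5 and 75.7 CPM with vehicle (log2 fold change 3.79 ± 0.09 (SE), adjusted p = 3.05e-10). Dusp16 (3.38), Cish (3.27) and Zc3h12c (3.69) rose past 2-fold too. By contrast, Dusp1, the phosphatase of p38 and JNK, stood at 353, 391 and 436 CPM with LPS and 406, 389 and 399 CPM with vehicle (log2 fold change -0.02 ± 0.08 (SE), adjusted p = 0.863) and the mRNA decay factor Zfp36 at 135, 195 and 216 CPM with LPS and 208, 216 and 225 CPM with vehicle (log2 fold change -0.25 ± 0.14 (SE), adjusted p = 0.146). Neither was called, and the sign of Dusp1 turned without LPS replicate 1 (0.06), without vehicle replicate 1 (0.01) and under RLE size factors (0.02). Zfp36 was called lower in 5 of 14 other analyses, among them without LPS replicate 3 (-0.39). The paralogs of Zfp36 fell, Zfp36l1 by 4.15-fold and Zfp36l2 by 4.24-fold, and so did the regulators of G protein signaling Rgs2 (29.4, 27.6 and 33.2 CPM with LPS and 266, 254 and 244 CPM with vehicle, log2 fold change -3.08) and Rgs1 (-1.16).

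Inflammasome and cell death genes rose in 11 of 17 members past 2-fold and fell in 1. Nlrp3, the sensor whose transcript must be primed, stood at 804, 739 and 702 CPM with LPS and 34.3, 38.6 and 34.8 CPM with vehicle (log2 fold change 4.38 ± 0.08 (SE), adjusted p = 5.24e-11). Casp4, the mouse caspase-11 that binds cytosolic LPS, stood at 219, 219 and 220.1 CPM with LPS and 13.95, 12.6 and 12.2 CPM with vehicle (log2 fold change 4.08 ± 0.07 (SE), adjusted p = 3.41e-11), with LPS libraries that hardly differed from each other. Casp1 (2.33), Mlkl (3.84), Fas (3.79) and Bcl2a1d (4.64) rose, so that genes that carry out and genes that restrain cell death were both among the raised. Bcl2a1d has close paralogs and is uncertain as a single gene. Nlrp1b fell by 16.6-fold (1.69, 0.795 and 1.40 CPM with LPS and 22.8, 20.7 and 19.9 CPM with vehicle).

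Effector metabolism had 15 of 33 genes raised and 5 lowered past 2-fold, 4 of the latter among the prostaglandin genes. Of the 8 genes of nitric oxide, arginine and itaconate, 5 rose past 2-fold. Besides Nos2 and Acod1 they included the arginine importer Slc7a2 (2455, 2493 and 2156 CPM with LPS and 38.8, 46.4 and 38.3 CPM with vehicle, log2 fold change 5.85) and Ass1 (4.45), which regenerates arginine. Arg1, the competing arginase, stayed near 1 CPM (2.11, 1.55 and 1.31 CPM with LPS and 0.707, 1.03 and 0.553 CPM with vehicle). Its difference (1.12, adjusted p = 0.0148) was not called without LPS replicate 1 (0.92) or under total counts (0.71). Prostaglandin genes divided by enzyme, with 4 raised and 4 lowered past 2-fold of 12. Ptgs2, the inducible cyclooxygenase, stood at 1783, 1829 and 1497 CPM with LPS and 14.3, 19.1 and 36.1 CPM with vehicle (log2 fold change 6.18 ± 0.31 (SE), adjusted p = 5.82e-08), and the inducible synthase Ptges at 788, 735 and 754 CPM with LPS and 5.25, 4.21 and 5.62 CPM with vehicle (log2 fold change 7.22 ± 0.10 (SE), adjusted p = 1.80e-11). The constitutive cyclooxygenase Ptgs1 fell from 61.3, 53.02 and 61.8 CPM to 16.1, 15.7 and 15.4 CPM (-1.90). Hpgd, which inactivates prostaglandin E2, fell from 83.6, 83.2 and 72.8 CPM to 4.28, 4.68 and 4.35 CPM (log2 fold change -4.17 ± 0.09 (SE), adjusted p = 1.41e-10). The leukotriene genes Alox5ap (-1.23) and Ltc4s (-2.16) fell as well. The inducible synthetic enzymes thus rose, and the degrading enzyme and these leukotriene genes fell.

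Oxidant and iron genes followed, with 6 of 13 raised past 2-fold. Sod2, the mitochondrial superoxide dismutase, stood at 2265, 2255 and 2238 CPM with LPS and 68.7, 69.9 and 71.2 CPM with vehicle (log2 fold change 5.01 ± 0.06 (SE), adjusted p = 9.78e-12). The cystine importer Slc7a11 (5.65) and the siderophore-binding Lcn2 (3.67) rose, and Ido1 had 1 count with vehicle and 0.663, 0.795 and 1.44 CPM with LPS. The iron exporter Slc40a1 fell to 64.6, 45.8 and 31.4 CPM from 175, 167 and 156 CPM (log2 fold change -1.82 ± 0.20 (SE), adjusted p = 2.37e-05). The ferritin chains differed, Fth1 being higher by 2.06-fold and Ftl1 lower by 1.31-fold, each called but not past 2-fold.

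Among 19 glycolysis genes 6 were raised past 2-fold and 0 lowered, and these included transporters and regulators. Under total counts or upper-quartile scaling 3 were raised past 2-fold. Slc2a6 (897, 855 and 829 CPM with LPS and 17.6, 17.97 and 13.6 CPM with vehicle, log2 fold change 5.72) rose most, followed by Pfkfb3 (2.23), Hif1a (1.82), Slc16a3 (1.37) and Slc2a1 (1.26). Pkm, the last enzyme, stood at 1979.7, 2105 and 2135 CPM with LPS and 2376, 2241 and 2201 CPM with vehicle (-0.13, adjusted p = 0.0832). In the TCA cycle and respiratory chain, 0 of 23 rose past 2-fold, and the median of 0.12 became -0.29 under total counts and -0.06 under upper-quartile scaling. The 2 members lowered past 2-fold were the isocitrate dehydrogenase genes Idh1 and Idh2, and the enzyme of Idh1 lies outside the mitochondrion. Idh1 stood at 82.2, 76.5 and 72.98 CPM with LPS and 234, 221 and 226 CPM with vehicle (log2 fold change -1.56 ± 0.06 (SE), adjusted p = 1.06e-08). Idh2 stood at 24.7, 24.02 and 24.6 CPM with LPS and 56.4, 58.9 and 55.8 CPM with vehicle (log2 fold change -1.22 ± 0.06 (SE), adjusted p = 5.83e-08). Cs, which makes citrate, was higher by 1.61-fold (0.68), called but not past 2-fold. Cholesterol genes changed little as a list (3 raised and 2 lowered past 2-fold of 22, median 0.42). Ch25h rose past 2-fold, the synthetic enzyme Dhcr7 fell by 4.65-fold (10.9, 13.3 and 11.99 CPM with LPS and 55.2, 52.9 and 60.97 CPM with vehicle), and the exporter Abcg1 fell (-1.63).

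Of 10 MHC class I genes 10 were called higher, 9 of them past 2-fold (median 2.68), and of 7 class II genes 6 were called higher, 0 past 2-fold (median 0.44). Tap1, the peptide transporter, stood at 747, 723 and 769.6 CPM with LPS and 43.1, 43.4 and 39.8 CPM with vehicle (log2 fold change 4.15 ± 0.07 (SE), adjusted p = 2.83e-11), and Nlrc5 (3.78), the class I transactivator, and the immunoproteasome subunit Psmb8 (2.56) rose with it. H2-Ab1 (258, 246 and 281 CPM with LPS and 121, 112 and 147 CPM with vehicle, log2 fold change 1.05) and the invariant chain Cd74 (0.60) were called higher but not past 2-fold, and Cd74 was not called under total counts (0.19) or with all 36 libraries in 1 fit (0.60). Among costimulatory and checkpoint genes 7 of 9 rose past 2-fold. Cd40, which receives T cell help, stood at 1288, 1161 and 1119.5 CPM with LPS and 3.61, 2.64 and 4.21 CPM with vehicle (log2 fold change 8.39 ± 0.14 (SE), adjusted p = 3.41e-11), and Cd69 at 235, 226 and 205 CPM with LPS and 0.521, 1.08 and 0.553 CPM with vehicle (8.32). The checkpoint ligand Cd274 (PD-L1) stood at 1366, 1314 and 1305 CPM with LPS and 58.05, 55.2 and 58.5 CPM with vehicle (4.54). Of the paired ligands of CD28, Cd86 rose (2.81) and Cd80 was called higher by less than 2-fold (0.81).

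Of 25 phagocytic and scavenger receptors 11 rose and 3 fell past 2-fold. The scavenger receptor Marco stood at 523, 819 and 475 CPM with LPS and 1.12, 1.43 and 2.03 CPM with vehicle (log2 fold change 8.60 ± 0.29 (SE), adjusted p = 2.74e-09) and the lectin Clec4e, which binds mycobacterial glycolipids, at 3189, 2943 and 2731 CPM with LPS and 10.2, 9.50 and 13.9 CPM with vehicle (log2 fold change 8.03 ± 0.15 (SE), adjusted p = 5.93e-11). The inhibitory Fc receptor Fcgr2b (3.34) and the activating Fcgr1 (2.53) both rose. In the opposite direction went Clec7a, the beta-glucan receptor dectin-1 (358, 354 and 375 CPM with LPS and 948, 931 and 1009.6 CPM with vehicle, log2 fold change -1.41), the hemoglobin scavenger Cd163 (-1.91) and Gas6 (36.2, 29.3 and 33.5 CPM with LPS and 185, 151 and 178 CPM with vehicle, log2 fold change -2.38), which bridges dying cells to their receptors. Mrc1 (-0.83) and Trem2 (-1.12) were called lower but not past 2-fold. Under total counts 7 of the list were lowered past 2-fold, and under upper-quartile scaling 5.

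Genes of macrophage identity went down more often than up, with 7 of 31 called higher and 21 lower, and 3 raised and 7 lowered past 2-fold (median -0.34). Pparg, the nuclear receptor of lipid handling and alternative activation, stood at 2.59, 2.43 and 3.41 CPM with LPS and 46.9, 45.9 and 44.4 CPM with vehicle (log2 fold change -4.01 ± 0.12 (SE), adjusted p = 9.57e-10). Mef2c (-1.97) fell past 2-fold. Spi1, which encodes the lineage factor PU.1, rose by 2.25-fold, and Tfec by 6.79-fold. The marker Adgre1 (F4/80) rose to 2222, 2241 and 2030.4 CPM from 756, 772 and 791 CPM. The MCSF receptor Csf1r stood at 1661, 1712 and 1648 CPM with LPS and 2133, 2024 and 2010.3 CPM with vehicle (log2 fold change -0.30 ± 0.06 (SE), adjusted p = 0.00103), and Lyz2 was lower by 1.21-fold. Of 19 lysosomal genes 2 were lowered past 2-fold, Lipa, the acid lipase (-1.28), and Tfeb, the factor that drives lysosomal genes (27.1, 27.8 and 28.2 CPM with LPS and 79.8, 67.2 and 67.1 CPM with vehicle, log2 fold change -1.36), and 0 were raised. Under total counts 5 were lowered past 2-fold.

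Cell cycle genes had the largest share of lowered members among the 23 lists. Of 42 genes 26 fell past 2-fold (61.9%, background 8.63%) and 2 rose, with a median of -1.52. Mcm7, of the replicative helicase, stood at 8.14, 12.4 and 11.7 CPM with LPS and 55.6, 63.2 and 49.9 CPM with vehicle (log2 fold change -2.37 ± 0.14 (SE), adjusted p = 2.56e-07), and Ccna2, cyclin A2, at 5.37, 9.09 and 9.36 CPM with LPS and 40.8, 45.5 and 33.9 CPM with vehicle (log2 fold change -2.31 ± 0.18 (SE), adjusted p = 1.87e-06). The decline covered 13 of 18 replication and 10 of 14 mitosis genes, among them Mcm2 (-2.17), Top2a (-1.69), Plk1 (-1.70) and Cdk1 (-1.38), while Pcna (-0.72) was lower by less than 2-fold. In G1, E2f2 stood at 1.93, 1.37 and 1.60 CPM with LPS and 27.5, 29.6 and 23.2 CPM with vehicle (log2 fold change -4.05 ± 0.16 (SE), adjusted p = 8.16e-09) and Ccnd1 at 11.6, 11.6 and 15.1 CPM with LPS and 54.7, 70.3 and 58.3 CPM with vehicle (log2 fold change -2.25 ± 0.13 (SE), adjusted p = 1.53e-07). Against this direction, the cyclin-dependent kinase inhibitor Cdkn1a rose to 899, 781 and 713 CPM from 73.3, 76.2 and 76.1 CPM (log2 fold change 3.41 ± 0.09 (SE), adjusted p = 5.21e-10), and Ccnd2 rose to 93.03, 109 and 89.03 CPM from 7.03, 10.7 and 15.9 CPM (3.10). Of the neutrophil markers, 4 fell past 2-fold beside them, Mpo at 3.20, 3.31 and 4.51 CPM with LPS and 17.3, 19.7 and 20.7 CPM with vehicle (-2.38), Elane (-2.41), Ltf (-1.87) and Retnlg at 0.0603, 0.0883 and 0.205 CPM with LPS and 6.81, 6.54 and 4.94 CPM with vehicle (-5.55). Of the other 5 tested, 3 were called lower and 2 higher, none past 2-fold by the stricter test. Whether cells of that lineage in the cultures carried part of the cell cycle transcripts was not tested.

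Among 18 clock genes 1 rose and 5 fell past 2-fold. Cry1, a repressor of BMAL1-CLOCK, stood at 26.8, 28.8 and 25.9 CPM with LPS and 7.22, 7.89 and 8.93 CPM with vehicle (log2 fold change 1.76 ± 0.10 (SE), adjusted p = 2.08e-07). The output factors Dbp (0.904, 1.02 and 1.85 CPM with LPS and 5.99, 4.98 and 6.05 CPM with vehicle, log2 fold change -2.15) and Tef (16.1, 14.7 and 15.4 CPM with LPS and 53.02, 49.5 and 54.2 CPM with vehicle, log2 fold change -1.77), Per3 (-1.52), Nr1d2 (-1.32) and Bhlhe40 (-1.37) fell. Arntl, the Bmal1 gene itself, stood at 10.4, 8.21 and 9.52 CPM with LPS and 7.37, 8.74 and 10.04 CPM with vehicle (0.10, adjusted p = 0.593), with overlapping groups and a sign that turned under total counts (-0.31), upper-quartile scaling (-0.08) and voom (-0.03). Per1 (-0.83), Per2 (-0.85) and Nr1d1 (-1.06) were called lower but not past 2-fold.

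Matrix proteases also split. Mmp13 stood at 2525, 2871 and 2579.7 CPM with LPS and 47.5, 53.1 and 58.1 CPM with vehicle (log2 fold change 5.65 ± 0.10 (SE), adjusted p = 4.39e-11), and Serpinb2 (4.07), Adamts4 (3.56), Mmp14 (3.41) and Plaur (1.68) rose past 2-fold as well, 5 of 15 in all. Vehicle replicate 3 was the highest vehicle library for Serpinb2 (11.6, 16.8 and 25.9 CPM), Adamts4 (1.04, 1.43 and 3.99 CPM) and Mmp14 (152, 138 and 238 CPM). The median of the list, 0.61, became 1.05 without vehicle replicate 3 and 0.37 without vehicle replicate 1. Plau, whose product urokinase binds the receptor encoded by Plaur, fell from 318, 321 and 294 CPM to 55.7, 47.3 and 45.5 CPM (log2 fold change -2.65 ± 0.08 (SE), adjusted p = 1.87e-09), while Plaur rose. Mmp19 (-1.25) was the other lowered gene, and 1 gene of the list was lowered past 2-fold without LPS replicate 1, LPS replicate 2 or vehicle replicate 3. Of 16 heat shock and stress genes 3 rose past 2-fold, Gadd45b (2.45) and the near-identical pair Hspa1a (2.29) and Hspa1b (1.72), each of which is uncertain as a single gene.

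The deposited table also assigns transcription factors to families, and these add genes outside the lists. Of 892 factors tested, 73 were raised and 71 lowered past 2-fold (8.18% raised, against 10.3% of all genes). By family, among STAT factors 4 of 7 rose past 2-fold, among Rel homology factors 5 of 10 and among IRF factors 3 of 8. Of 415 C2H2 zinc finger factors 18 rose and 18 fell, and of 10 E2F factors 0 rose and 3 fell. Of the 45 bZIP factors 7 rose and 8 fell. By biotype, 12541 of the genes tested were protein-coding, of which 1267 rose and 1147 fell past 2-fold (10.1 and 9.15%). Of 306 antisense genes 52 rose (17%), and whether the counting used strand is not given in the sources used here, so reads of the gene on the other strand cannot be told apart from theirs. The same holds for genes named above that overlap others, among them Irf7 (Phrf1), Il27 (Apobr), Cxcl11 (Art3), Tap1 (Psmb9), Gbp8 (Gbp9 and Gbp4) and Mcm7 (Cops6 and miRNA genes).

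On a scale per kilobase of gene length (TMM-scaled CPM divided by the gene length in kilobases), the level order was led in both groups by Fth1, at 28195 ± 566 with LPS and 13674 ± 1452 with vehicle (SD, n = 3). Lyz2 followed at 8350 ± 230 with LPS and 10067 ± 753 with vehicle, and Apoe at 7163 ± 327 and 8499 ± 1221, where the groups of Apoe overlapped (not called, except as lower without vehicle replicate 2, -0.33, and in 5 other analyses). A predicted gene of 57 bases, Gm23935, ranked before Lyz2 with LPS and after it with vehicle. In the LPS libraries Ccl5 came next, at 4302 ± 208, from 2.92 ± 0.284 with vehicle, and so ranked among the 5 highest. B2m stood at 3941 ± 90.1 with LPS against 1605 ± 67.9. B2m and its neighbor in that order, mt-Co1 (3869 ± 108), did not differ beyond their spread. In the vehicle libraries the places after Apoe were held by Ftl1 (4272 ± 669), Psap (3952 ± 247), Ctss (3952 ± 334) and mt-Co1 (3708 ± 210), which overlapped one another, and then by the protease Ctsd, at 3444 ± 344, against 1798 ± 53.5 with LPS (-0.94, called but not past 2-fold). Ctsd and mt-Co1 did not differ beyond their spread with vehicle.

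The same genes were then read in libraries that this comparison does not share. In KO cells, 6433 of 13648 genes were called for LPS against vehicle (47.1%; 2066 past 2-fold, 15.1%), with a common coefficient of variation of 0.304. Same-numbered KO libraries deviated together (correlations of 0.30 to 0.83, against -0.608 to 0.415 for other pairs), and a fit that took the number as a block called 10300 genes. Without KO replicate 6 the count was 9612. Of the 1490 genes raised past 2-fold in WT, 1373 were tested in KO, where 1372 had the same sign, 1355 were called in that direction and 0 in the opposite one. Of the 1251 lowered genes, 1180 were tested, 1180 had the same sign and 1163 were called. The medians of the genes tested were 2.37 in WT and 2.29 in KO for the raised, and -1.94 and -1.81 for the lowered. Nos2 had a log2 fold change of 9.43 in KO, Il1b 9.16, Ifit1 7.64 and Cxcr4 -4.43. A test of the difference between the genotypes' responses called 0 of 15093 genes (0%) with edgeR's quasi-likelihood test and 0 with DESeq2. In edgeR 112 genes had an unadjusted p under 0.05, or 308 without KO replicate 6 and 326 with the replicate block. Each is a smaller share than the 0.05 that arises where no gene differs, so this test was conservative. A count of 0 does not show that the responses were equal.

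With CCM present in both arms, 8555 of 13907 genes were called for LPS in WT (61.5%; 2168 past 2-fold, 15.6%). Of the raised genes 1410 were tested there and 1409 had the same sign, and of the lowered 1210 of 1210 did. The median of the raised genes tested was 2.42 without and 2.16 with CCM, that of the lowered -1.96 and -1.64. The genes were chosen as called past 2-fold without CCM in WT, so the medians without CCM in WT come from the values that chose them, and those with CCM or in KO do not. The difference between both responses was called for 308 of 14747 genes (2.09%), in 69 of which the effect of LPS was more positive when CCM was present, and 688 by DESeq2. That count depended on single libraries, with 158 calls without LPS replicate 2, 186 without LPS replicate 1 and 200 without vehicle replicate 2.

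**Figure D5:**
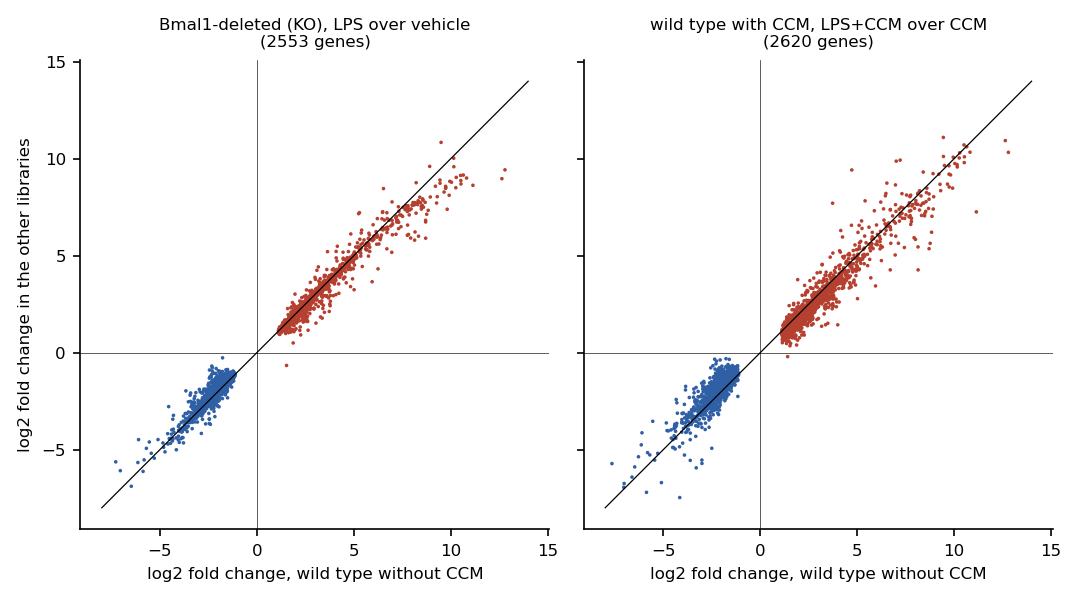
Log2 fold change of genes called past 2-fold in WT without CCM (x axis, red raised and blue lowered) against the log2 fold change of the same genes in libraries that the WT comparison does not use (y axis). Left, LPS over vehicle in KO (2553 genes), and right, LPS with CCM over CCM in WT (2620 genes). Points lie in the quadrants of equal sign, with 1 raised gene below 0 in each panel, and the line marks equal change.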

How the data were processed

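Gene-level RNA-seq counts of BMDMs were used as deposited by the authors, as whole-number, unnormalized counts for 54532 genes in 36 libraries. Per the labels and the submitters' processing notes, reads were trimmed with fastp, aligned with HISAT2 2.0.5 to GRCm38 and counted with featureCounts 1.5.0-p3, and the strand setting is not given in the sources used here. Libraries were grouped by their labels, and 3 LPS and 3 vehicle libraries of WT were compared. Genes passing edgeR's filterByExpr in those libraries were tested with edgeR 4.0.16 (R 4.3.3) by the quasi-likelihood test with TMM factors, and by glmTreat against a log2 change of 1, each with Benjamini-Hochberg adjustment at 0.05. KO, CCM-present and interaction tests were fitted in the same way. Depth was 19016154 to 28288923 counts, and 3 counts, used as the floor for genes at 0, equal 0.0921 to 0.181 CPM. Counting intervals are exact at 95% and cover counting error only. The SE of a log2 fold change was derived from the F statistic of the quasi-likelihood test and is too narrow where a group holds only a few counts. The statistics were also run on counts simulated from the main fit, with few genes changed and as many raised as lowered. That setting does not cover a response as broad and uneven as this one.

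Same-numbered WT libraries deviated together only weakly (correlations of 0.046 to 0.172, against -0.171 to 0.043 for other pairs), and the main fit had no block. With a replicate block 9366 genes were called in WT. In KO the same-numbered pairs correlated more strongly (0.30 to 0.83, against -0.608 to 0.415 for other pairs), so the blocked count is given beside that result. Alternatives were DESeq2 1.42.0, RLE, upper-quartile or total-count scaling, no filter, a replicate block, limma 3.58.1 voom, all 36 libraries in 1 fit, and each library left out. Genes were named as the 12 most raised and lowered with an average log2 CPM of at least 3, up to 5 members each way of each of 23 lists with an average log2 CPM of at least 1, members that went against or define a list, genes the study names, the 10 highest per length and those with the smallest interaction p. The members and lists were chosen with earlier results of these data known, and some members, such as Tnf, Ifnb1 and Per2, were chosen for their role after their values were seen. A few genes that the rule names are not reported here.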

Additional observations from a re-analysis of the deposited data

Results flagged for a closer look

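For 29 of the 258 genes named by the rule or for their role, the effect of LPS in WT differed between libraries with and without CCM by a test of the difference itself (edgeR's quasi-likelihood interaction, Benjamini-Hochberg adjustment over 14747 genes, n = 3 libraries in each of 4 groups, adjusted p from 0.00122 to 0.0465). The background is 308 of 14747 genes (2.09%). Nothing is read from the count of 29, since 10 of these genes were named for the smallest p of this same test. The difference between genotypes passed for 0 of all 15093 genes tested, so that test tells nothing about these 29 in particular. Values are the log2 effect of LPS with CCM minus that without, and no explanation was tested.

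The difference was -1.61 for Dok7, an adaptor of the muscle receptor kinase MuSK (effect 1.41 without and -0.20 with CCM), and -1.41 for Iigp1 (8.48 without and 7.06 with CCM), an interferon-induced GTPase. Among genes that LPS raised, the effect was also smaller with CCM for Ccrl2 (-1.15), Il15 (-1.07), Tlr3 (-0.93), Slc7a11 (-0.83), Ccl3 (-0.78), Il18 (-0.74), Cdkn1a (-0.70), Bcl2a1d (-0.69), March5 (-0.62), Nlrc5 (-0.62), Tlr7 (-0.61), Irf1 (-0.60), Tap1 (-0.58), Cd274 (-0.57), Rel (-0.50) and Nfkb2 (-0.38). It was larger for Hspa1a (1.19) and Tgfbi (0.66). Pstpip1, which was not called for LPS without CCM, differed by 0.61 (0.13 without and 0.74 with CCM).

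Among genes that LPS lowered, the fall was smaller with CCM for Pparg (0.87), Snx24 (0.86), Sesn1 (0.85), Glul (0.78) and Ccnd1 (0.77), and it was larger for Rgs1 (-1.10) and Rgs2 (-0.56). Slc16a6, a monocarboxylate transporter family member, differed by 0.86 (-0.68 without and 0.18 with CCM).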

How the results depend on the processing

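Between 8357 and 9682 genes were called for LPS in WT when a library was left out or under DESeq2, RLE or upper-quartile scaling, the replicate block (9366) and voom, 9821 without a filter, 10611 under total counts and 5644 with all 36 libraries in 1 fit. The count past 2-fold ran from 2068 to 3381 over all of these, and from 2532 to 2761 over the libraries left out. No gene called past 2-fold changed sign in any. In KO, the replicate block gave 10300 calls. The LPS by CCM interaction gave 548 with the replicate block, 688 with DESeq2, 721 without a filter and 158 to 295 with a library left out, and the genotype interaction gave 0 in each fit. The cause was not tested.

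Signs turned under total counts for Uqcrc2 (-0.0106), Tfe3 (-0.0381), Lamp2 (-0.0481), Ogdh (-0.097), Kcnq1ot1 (-0.1778), Pstpip1 (-0.2786), Arntl (-0.3135) and mt-Co1 (-0.3509), since all values move down there. They turned under upper-quartile scaling for Pstpip1 (-0.0485), Arntl (-0.081) and mt-Co1 (-0.1189), and under voom for Arntl (-0.0319). Dusp1 turned under DESeq2 (0.0204) and RLE (0.0203) and lay between -0.092 and 0.0596 with a library left out, and Phf21b between -0.1947 and 0.0145. Of the members lowered past 2-fold, total counts moved matrix genes from 2 to 4, lysosomal genes from 2 to 5, phagocytic receptors from 3 to 7 and cytokines from 0 to 2. DESeq2 moved effector metabolism from 5 to 2, and all 36 libraries moved clock genes from 5 to 3. Raised identity genes went from 3 to 1 and raised cholesterol genes from 3 to 1 under total counts. Depth limited the lowest genes, such as Ifnb1 and Tlr5, to bounds.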
